A study of Homo sapiens with 6 samples.

Results

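The tropomyosin gene family was examined in 8505C, an established human cell line from an anaplastic (undifferentiated) thyroid carcinoma. Its members were found by gene symbol: TPM1, TPM2, TPM3 and TPM4 are 4 of the 33539 Ensembl genes in the table, and all 4 were among the 13564 genes tested. The family was taken up with its values in this same comparison already known, TPM4 being among the genes with the largest rises. The members' own values are therefore given as a description, and no test of them is used as support.

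Tropomyosins are coiled-coil dimers that join head to tail into cables along the actin filament and set which other proteins can reach it. In striated muscle they work with troponin to switch contraction on and off. In other cells the cytoskeletal forms steer myosin II, cofilin and the Arp2/3 complex to particular filaments. Each of the genes yields several proteins through alternative promoters and exons, and forms made from TPM1 and TPM2 are known for their loss in many transformed cells.

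Poly(A) RNA was sequenced 24 h after transfection with a negative control siRNA (NC, 3 libraries) or with an siRNA against POLR1F (siPOLR1F, 3 libraries). POLR1F encodes a subunit of RNA polymerase I, and the study asked which genes respond to its silencing. All 6 libraries came from 1 cell line grown in the same medium with serum, with no label that tells whether the replicates were separate cultures. The spread that the p-values are set against is therefore that between libraries and could be technical.

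Depth was alike, from 60576788 to 63038378 counts in a library. POLR1F itself had 2446, 2246 and 2095 counts in the NC libraries against 575, 395 and 413 in the siPOLR1F libraries, so the labels matched the targeted gene in each library. Of 6 thyroid follicular markers, only NKX2-1 exceeded 1 FPKM in any library, with a mean of 45.2 FPKM (fragments per gene length in kilobases, scaled to library size) in NC and 27.5 in siPOLR1F. PAX8 stayed at or below 0.777 FPKM in every library, and TG, SLC5A5 and TSHR did not exceed 0.0256, so the defining genes of differentiated thyroid cells were near 0. The mesenchymal list, led by vimentin (VIM), summed to between 703 and 765 FPKM in NC and 721 and 747 in siPOLR1F. The epithelial list, led by KRT8 and KRT18, summed to between 266 and 298 FPKM in NC, against 226 to 256 FPKM in siPOLR1F. The smooth muscle, fibroblast and leukocyte lists each summed to at most 1.98 FPKM in every library. The part of NKX2-1 and of the epithelial genes in the results given here was not tested.

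A few sequences are shown because, in the stretches searched, they were found in TPM4 and in no other member. An earlier scan of 3′ untranslated regions against these same fold changes had picked out a pair of heptamers, TCGGAGA and CCGACTT. Their presence in a member is therefore a description and no independent support. The sense strand of the GENCODE 29 transcripts was searched. TCGGAGA occurred once in TPM4, in the 3′ untranslated region at chr19:16101493-16101499 (GRCh38, plus strand), 147 bases after the stop codon of transcript TPM4-202. It lay in 8 of the 14 coding transcripts of TPM4 and in no transcript of TPM1, TPM2 or TPM3. It is printed 5′ to 3′ with the heptamer in capitals and its flanking bases in lower case.
TPM4 3′ untranslated region: aatattttgtaTCGGAGAagctttgagca
The heptamer was present in the longest 3′ untranslated region of 2.18% of 11151 genes searched and in 8.11% of their longest coding sequences. Among the 1655 genes whose 3′ untranslated region was within 20% of the length of that of TPM4, the share was 2.18%. CCGACTT was in no coding transcript of any member, against 1.99% of all longest 3′ untranslated regions and 4.99% of coding sequences. It did occur in TPM3-209, a transcript of TPM3 not classed as protein-coding, at chr1:154183700-154183706 on the minus strand.

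The second sequence is a CArG box, the DNA element that serum response factor (SRF) binds and that many actin cytoskeleton genes carry. RefSeq promoter windows, from 250 bases before to 50 after a start (GRCh38.p14), were available for all 4 members. The CArG box reads the same class of letters on both strands, so 1 search covers both. It was found in 1 of 3 windows of TPM4, with its first base 173 bases before the start, and in none of the windows of TPM1 (1), TPM2 (2) or TPM3 (2). GENCODE 29 gives 18, 6, 12 and 13 starts of coding transcripts for TPM1, TPM2, TPM3 and TPM4, so the windows need not cover every start. The TPM1 window, 63048239 to 63048538, did not include the gene's first base at 63042632. On the minus strand, the TPM3 windows reached only 154183468, short of the gene's first base at 154192105. A box near an unsearched start would not have been seen. The window printed is chr19:16067355-16067384 on the plus strand, and capitals mark the box within it at chr19:16067365-16067374.
TPM4 promoter: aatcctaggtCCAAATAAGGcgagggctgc
Of 35116 RefSeq promoter windows of this length, 454 (1.29%) held a CArG box. A match describes the letters in the window and does not show that a factor binds there.

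TPM4 (ENSG00000167460, GRCh38 chromosome 19, 16067021 to 16103002, plus strand) encodes a cytoskeletal tropomyosin found in most non-muscle cells. Its level was 32.3, 23.6 and 24.4 FPKM in the NC libraries and 81.8, 80.3 and 82.9 FPKM in the siPOLR1F libraries. The lowest siPOLR1F library was 2.49 times the highest NC library, so the groups lay far apart. These levels came from 28126, 19733 and 21019 counts in NC, against 70208, 69880 and 71141 counts in siPOLR1F. The mean rose from 26.8 ± 4.77 to 81.7 ± 1.30 FPKM (SD, n = 3 each), a ratio of 3.05, with a fitted log2 fold change of 1.62 (SE 0.11). By that fold change TPM4 ranked 16 among the 13564 tested genes in order of rise. NC replicate 1 stood above the other NC libraries, and the coefficient of variation was 17.8% in NC against 1.59% in siPOLR1F. Without NC replicate 1 the log2 fold change was 1.77, the highest value over all alternatives, whose lowest was 1.53.

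TPM3 (ENSG00000143549, chromosome 1, 154155304 to 154192105, minus strand) encodes slow-muscle and widely expressed cytoskeletal forms. It stood at 36.0, 39.0 and 37.1 FPKM in NC and 40.4, 41.1 and 41.9 FPKM in siPOLR1F. Each siPOLR1F library was above each NC library, but the lowest siPOLR1F value was only 1.04 times the highest NC value. The means were 37.4 ± 1.50 and 41.1 ± 0.713 FPKM (SD, n = 3 each), and the log2 fold change was 0.15 (SE 0.05).

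TPM1 (ENSG00000140416, chromosome 15, 63042632 to 63071915, plus strand) encodes the main cardiac tropomyosin and several cytoskeletal forms. Its level was 19.6, 21.1 and 20.3 FPKM in NC and 16.3, 18.8 and 18.3 FPKM in siPOLR1F. The groups did not overlap, with siPOLR1F replicate 1 the lowest library. The mean went from 20.3 ± 0.740 to 17.8 ± 1.32 FPKM (SD, n = 3 each), a log2 fold change of -0.18 (SE 0.06). TPM1 was thus the only member whose mean was lower in siPOLR1F.

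TPM2 (ENSG00000198467, chromosome 9, 35681992 to 35690056, minus strand), the source of beta-tropomyosin of skeletal and smooth muscle, was the least abundant member. It stood at 4.02, 3.87 and 3.66 FPKM in NC and 4.11, 5.08 and 3.53 FPKM in siPOLR1F. The groups overlapped, since siPOLR1F held both the highest and the lowest library. The means were 3.85 ± 0.182 and 4.24 ± 0.780 FPKM (SD, n = 3 each), with a log2 fold change of 0.15 (SE 0.13). That value rested on siPOLR1F replicate 2: without this library it was 0.0019, and without siPOLR1F replicate 3 it was 0.26.

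**Figure D1:**
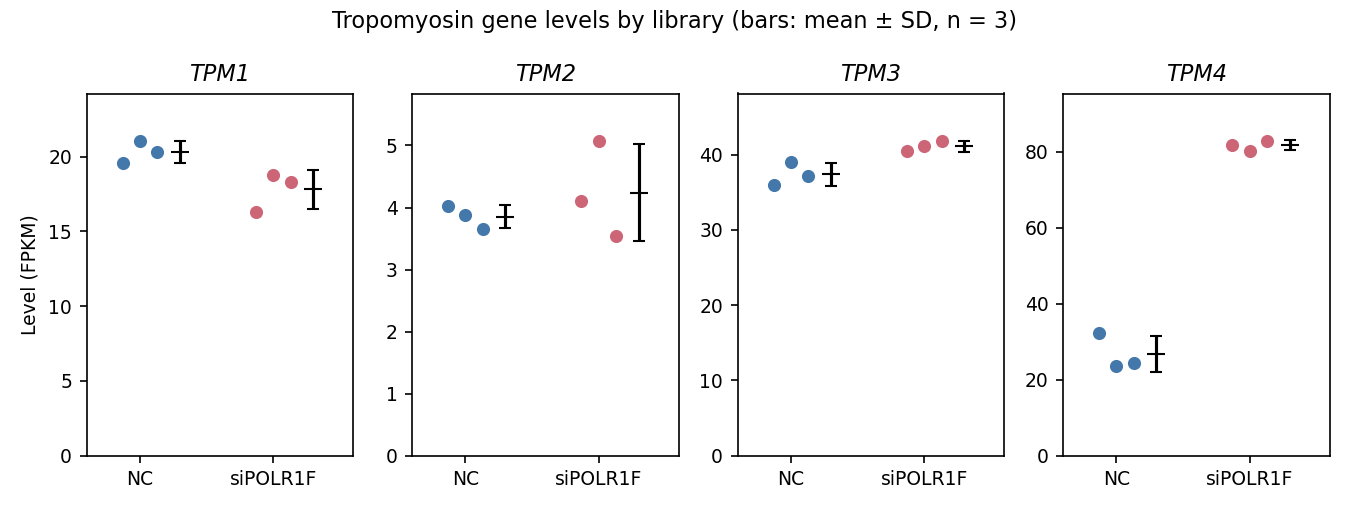
Level of each tropomyosin gene in FPKM (vertical axes from 0, each with its own range) in the 3 NC and 3 siPOLR1F libraries; points are libraries from replicate 1 to 3, and bars show the mean ± SD (n = 3). TPM4 lies at 23.6 to 32.3 in NC and at 80.3 to 82.9 in siPOLR1F, while the other members differ little between the groups.

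With edgeR's quasi-likelihood test and Benjamini-Hochberg adjustment over all tested genes at a threshold of 0.05, 1 of the 4 members, TPM4, passed. Among all tested genes 17.2% passed, 10.3% as higher and 6.94% as lower. The members of the family whose FPKM did not overlap between the groups were 3 of 4, against 37.9% of all tested genes. Since this contrast chose the family, these counts are no test of it and nothing is read from them. They also depended on the setting: DESeq2 called TPM1, TPM3 and TPM4, and edgeR without NC replicate 2 called TPM3 and TPM4. With any other library left out, TPM4 alone was called.

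The rise of TPM4 changed the make-up of the family. The summed level of the 4 genes was 91.9, 87.5 and 85.5 FPKM in NC and 143, 145 and 147 FPKM in siPOLR1F, a ratio of means of 1.64. Without TPM4, the summed level of TPM1, TPM2 and TPM3 was 61.6 ± 2.19 FPKM in NC (SD, n = 3) against 63.2 ± 2.12 in siPOLR1F (SD, n = 3), and these ranges overlapped. In counts, the family took 0.133% of a library in NC and 0.211% in siPOLR1F.

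TPM4 made up 35.1%, 27.0% and 28.6% of the family's summed FPKM in NC and 57.4%, 55.3% and 56.5% in siPOLR1F. Its mean share was thus 26.2 percentage points higher in siPOLR1F. The share of TPM3 went from 42.4% ± 2.81 to 28.4% ± 0.137 (SD, n = 3 each), although its own level was not lower. The share of TPM1 went from 23.0% ± 1.50 to 12.3% ± 0.774, and that of TPM2 from 4.36% ± 0.0746 to 2.93% ± 0.544 (SD, n = 3 each). In NC, TPM3 exceeded TPM4 in each library, with a ratio of TPM4 to TPM3 in FPKM of 0.895, 0.605 and 0.658. In siPOLR1F the order was turned in each library, with ratios of 2.02, 1.95 and 1.98. The ratio of TPM3 to TPM1 was 1.84, 1.85 and 1.83 in NC, nearly the same in each library, and 2.48, 2.19 and 2.28 in siPOLR1F.

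**Figure D2:**
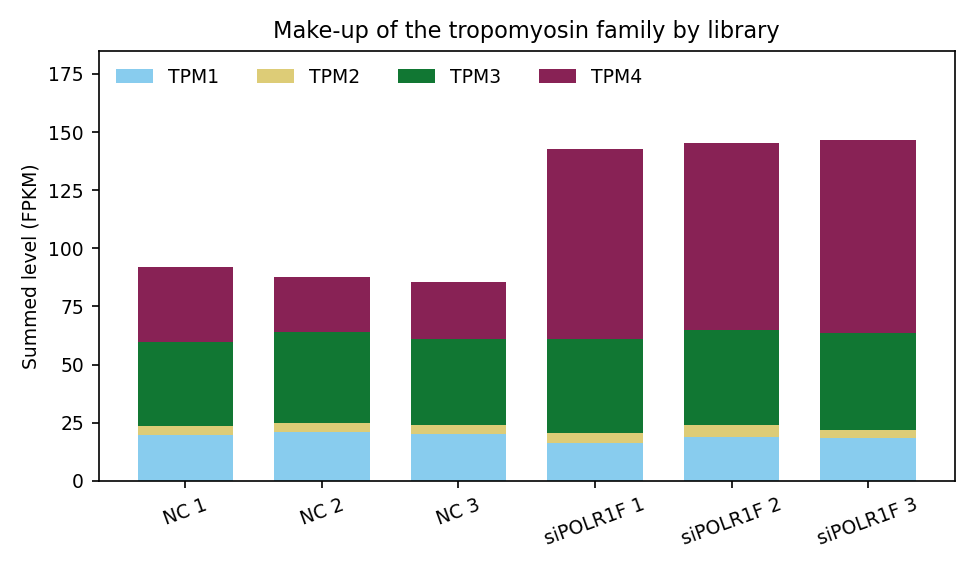
Stacked bars of the FPKM of TPM1, TPM2, TPM3 and TPM4 (vertical axis, FPKM, from 0) in each of the 6 libraries. The part below TPM4 keeps nearly the same height, 61.6 in NC and 63.2 in siPOLR1F on average, while the TPM4 part makes up 30.2% of the bar in NC and 56.4% in siPOLR1F.

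The order of levels between members depended on the gene length used. From the deposited counts and FPKM together, the lengths behind the FPKM were 13754 bases for TPM1, 3188 for TPM2, 15136 for TPM3 and 12360 for TPM4. These are estimates, rescaled so that the median well-counted gene matches its merged exons in GENCODE 29, which measured 12876, 3248, 8389 and 8632 bases for the members. The estimates are 12.5, 2.77, 9.19 and 6.55 times the median GENCODE 29 coding transcript of the same gene. The table annotates 32 transcripts for TPM1, 10 for TPM2, 22 for TPM3 and 29 for TPM4, and counts per gene do not separate them.

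A scale chosen after the data were seen, library-size-scaled counts per kilobase of the median coding transcript (CPM per kb), gave TPM1 276, 295 and 284 in NC and 230, 263 and 253 in siPOLR1F. On it TPM4 stood at 238, 173 and 179 in NC and 603, 588 and 599 in siPOLR1F. TPM1 thus exceeded TPM4 in each NC library on this scale, whereas TPM4 exceeded TPM1 in each NC library in FPKM. TPM3 had the highest mean in NC and TPM2 the lowest on both scales, TPM3 reaching 384 ± 14.2 and TPM2 11.9 ± 0.621 CPM per kb (SD, n = 3 each). In siPOLR1F, TPM4 was the highest member in each library on both scales, and the order from TPM4 through TPM3 and TPM1 to TPM2 was the same. The order of TPM1 and TPM4 in NC is therefore not settled by these data. The mean share of TPM4 on this scale was 22.3% ± 3.62 in NC and 46.6% ± 1.06 in siPOLR1F (SD, n = 3 each).

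**Figure D3:**
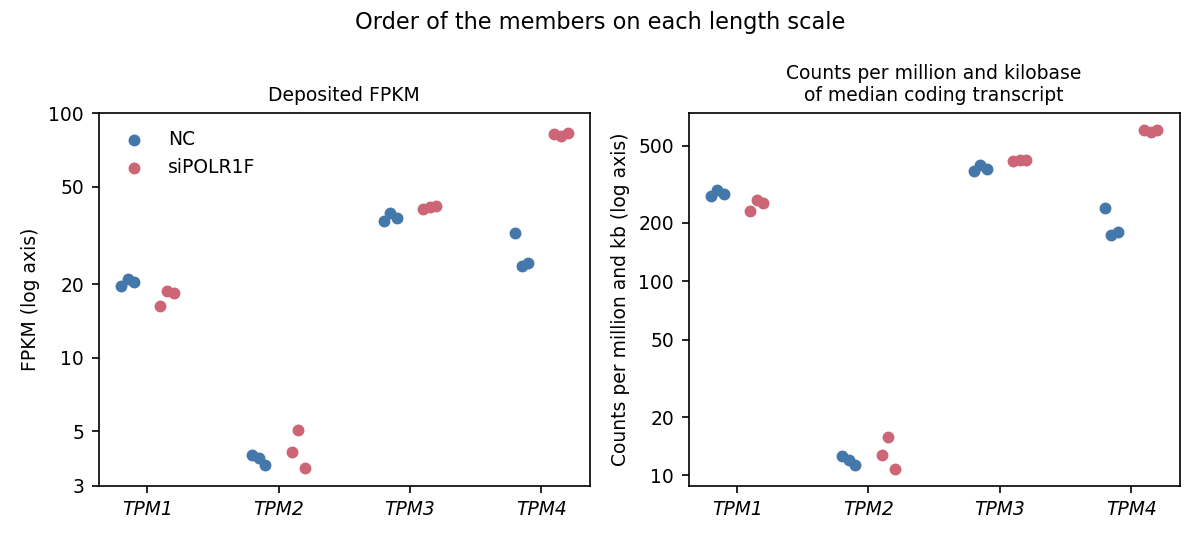
Levels of the 4 genes in each library (points, replicates 1 to 3 from left to right) on log axes, in deposited FPKM (left) and in CPM per kb of the median coding transcript (right). In NC, TPM4 lies above TPM1 on the left and below it on the right, while in siPOLR1F TPM4 is the highest gene in both panels.

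Set among all tested genes by mean FPKM in NC, TPM3 stood above 93.0% of them, TPM4 above 89.8%, TPM1 above 85.9% and TPM2 above 44.4%. Copies of the tropomyosin genes took few reads. The 5 tropomyosin pseudogenes TPM2P1, TPM3P5, TPM3P6, TPM3P8 and TPM3P9 together had between 466 and 586 counts per library, from 0.349% to 0.679% of the members' counts. TPM3P5 went from 1.60 to 2.04 FPKM and TPM3P9 from 2.09 to 1.82, and neither passed edgeR's test (adjusted p = 0.403 and 0.467). How the authors treated reads that match several places is not given, so small amounts may be divided between TPM3 and these copies. Of genes that overlap a member, TPM1-AS, on the opposite strand of TPM1, had between 43 and 92 counts per library and RN7SL431P, within TPM3, at most 1. ENSG00000279198, on the opposite strand of TPM4, went from 0.298 to 0.475 FPKM and was below the level needed for testing. Strand was not stated for the counting, so reads of these genes and of their partners cannot be told apart.

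Profiles across the 6 libraries were compared by the root mean square difference of log2(FPKM + 1), centred on each gene's mean, among tested genes with a mean of at least 5 FPKM. NOLC1, a nucleolar phosphoprotein, lay nearest to TPM4, with a difference of 0.12 and a level of 19.0 ± 1.46 FPKM in NC (SD, n = 3) against 57.2 ± 3.03 in siPOLR1F (SD, n = 3). It was followed by BICD2, a dynein adaptor, at 0.14, and EMC6, a subunit of the endoplasmic reticulum membrane complex, at 0.20. The nearest genes were much closer for the members that differed little between groups: COPS9, GSR and PARVA for TPM1 (0.017 to 0.021) and SNAP29, ARIH2 and LRRC47 for TPM3 (0.015 to 0.016). For TPM2 they were RPS3AP26, MT1X and CBR3 (0.035 to 0.076). Few tested genes rose as much as TPM4 (rank 16 of 13564), so its larger distances are in part set by the measure and nothing is read from them. All these profiles share the 6 libraries and the 2 groups, and the likeness is given as a description.

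The other genes of the actin filament were grouped by role. Of 147 listed genes, 145 were in the table and 122 were tested. By edgeR's quasi-likelihood test with Benjamini-Hochberg adjustment over all tested genes, 14 rose (11.5%, against 10.3% of all tested genes) and 25 fell (20.5%, against 6.94%), while 83 did not pass. The median log2 fold change was -0.04, against -0.01 over all tested genes. The counts moved by over 1.5 times when some libraries were left out. Those that rose were 9 without NC replicate 3, 8 without siPOLR1F replicate 1, 8 without siPOLR1F replicate 2 and 7 without siPOLR1F replicate 3. Those that fell were 13 without siPOLR1F replicate 1 and 14 without siPOLR1F replicate 2.

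Tropomodulins cap the pointed end of the filament and bind the end of the tropomyosin cable there, so they are the closest partners of the family. Of 6 tropomodulin and leiomodin genes in the table, TMOD3, the widely expressed form, was the only 1 tested. It stood at 36.5, 32.5 and 31.2 FPKM in NC and at 26.0, 25.9 and 25.5 in siPOLR1F, with no overlap. TMOD3 fell by 0.37 on the log2 scale (SE 0.07, edgeR adjusted p = 0.00793), opposite in direction to TPM4. Of the troponins, which bind tropomyosin in striated muscle, 2 were tested and neither passed. TNNT1 had 29.9 ± 2.61 FPKM in NC and 27.8 ± 2.04 in siPOLR1F, and TNNI3 0.919 ± 0.256 and 0.846 ± 0.150 (SD, n = 3 each). Of 6 striated muscle markers in the table, only MYH3, an embryonic myosin, reached the level for testing, and it rose (log2 change 0.77, edgeR adjusted p = 0.0274). Whether MYH3 kept this call under the alternatives is not given here. DES, CKM, TTN and ACTA1 were at or near 0, and the list summed to between 1.25 and 1.75 FPKM in NC and 1.82 and 2.65 in siPOLR1F.

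None of the 3 tested actins passed. ACTB, the main cytoskeletal actin, had 901 ± 43.4 FPKM in NC and 982 ± 59.0 in siPOLR1F (edgeR adjusted p = 0.116). ACTG1, its near-identical partner, had 751 ± 36.9 and 697 ± 33.1 FPKM (edgeR adjusted p = 0.187), and reads may be divided between them. Of 14 tested genes of myosin II, the motor whose access to actin tropomyosins set, and of its regulators, 1 rose (7.14%) and 2 fell (14.3%). The shares over all tested genes were 10.3% and 6.94%, and the list's median log2 change was -0.08. MYH9, the heavy chain of non-muscle myosin IIA, rose from 62.5 ± 0.985 to 73.0 ± 1.89 FPKM (SD, n = 3 each), a log2 change of 0.23 (SE 0.04, edgeR adjusted p = 0.0063). The regulatory light chains MYL12A and MYL12B, also near-identical, each had a log2 change of -0.18 (SE 0.05) and lay at the threshold (edgeR adjusted p = 0.0494 and 0.0499). Both lost the call without any single library but NC replicate 2, and without that library 2 genes of the list rose in place of 1. Over all alternatives the adjusted p ran from 0.0217 to 0.149 for MYL12A and from 0.0203 to 0.177 for MYL12B.

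Among 22 tested side-binding and cross-linking proteins, which share the filament's surface with tropomyosin, none rose, against 10.3% of all tested genes. In this list 6 fell (27.3%, against 6.94% of all tested genes), and the median log2 change was -0.07. SYNPO, encoding synaptopodin, fell by 0.49 on the log2 scale (edgeR adjusted p = 0.00634) and PLS1, encoding a bundling plastin, fell by 0.43 (edgeR adjusted p = 0.00918). CNN3, encoding acidic calponin, fell from 83.8 ± 1.97 to 69.2 ± 2.08 FPKM and PDLIM5, encoding a LIM protein bound to alpha-actinin, from 20.3 ± 0.352 to 16.7 ± 0.490 (SD, n = 3 each). Without siPOLR1F replicate 1, and likewise without replicate 2, those that fell were 4. Of 22 tested severing and capping proteins, 3 rose (13.6%, against 10.3% of all tested genes) and 5 fell (22.7%, against 6.94%). GSN, encoding gelsolin, which severs and caps filaments, fell from 6.55 ± 1.11 to 3.84 ± 0.512 FPKM (SD, n = 3 each; edgeR adjusted p = 0.00735). CAP1, which recycles actin monomers, fell by 0.30 on the log2 scale (edgeR adjusted p = 0.0119). SSH1, the phosphatase that activates cofilin, rose by 0.34 (edgeR adjusted p = 0.00634). WDR1, a cofilin cofactor, rose by 0.22 (edgeR adjusted p = 0.0170), but lost the call without NC replicate 3, siPOLR1F replicate 2 or siPOLR1F replicate 3, with adjusted p from 0.00124 to 0.0699 over all alternatives. Those that rose were 1 without siPOLR1F replicate 2 and likewise without replicate 3. Those that fell were 3 without NC replicate 1 or 2 and 2 without any 1 of the siPOLR1F libraries.

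Of 30 tested formins, Arp2/3 subunits and monomer-binding proteins, which build new filaments, 1 rose (3.33%) and 8 fell (26.7%). Over all tested genes the shares were 10.3% and 6.94%. DIAPH1, a formin that elongates unbranched filaments, fell from 27.6 ± 1.28 to 19.9 ± 0.948 FPKM (SD, n = 3 each; edgeR adjusted p = 0.00129). The Arp2/3 subunits ARPC4 and ARPC5 fell by 0.48 and 0.31 on the log2 scale (edgeR adjusted p = 0.00188 and 0.00716). PFN2, a profilin, fell by 0.42 (edgeR adjusted p = 0.00609). Those that fell were 5 without NC replicate 3 and 4 without siPOLR1F replicate 1, and none rose without NC replicate 1, NC replicate 3, siPOLR1F replicate 1 or siPOLR1F replicate 3. Focal adhesion proteins anchor filament bundles to the matrix. Of 15 tested, 2 rose (13.3%, against 10.3% of all tested genes) and 3 fell (20%, against 6.94%). PXN, encoding paxillin, fell from 32.2 ± 0.857 to 22.9 ± 0.514 FPKM (SD, n = 3 each; edgeR adjusted p = 5.31e-04), while LPP rose from 1.68 ± 0.151 to 2.65 ± 0.295 (SD, n = 3 each; edgeR adjusted p = 0.00376). VASP rose by 0.24 (edgeR adjusted p = 0.0181), a call lost without NC replicate 3 or siPOLR1F replicate 1 or 2, with adjusted p from 0.00164 to 0.0704 over the alternatives. VCL, encoding vinculin, fell from 30.4 ± 0.704 to 25.9 ± 0.942 FPKM (SD, n = 3 each; edgeR adjusted p = 0.0150), a call lost without siPOLR1F replicate 1 or 2, with adjusted p up to 0.0746 over the alternatives. Without either of these libraries, 1 rose and 1 fell.

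SRF drives many genes of the actin cytoskeleton through the CArG box. Of 13 tested genes for SRF, its cofactors and its common targets, 7 rose and none fell, with a median log2 change of 0.19. The 7 made up 53.8%, against 10.3% that rose among all tested genes. Actins, myosin II genes, side-binding proteins and focal adhesion proteins were counted in other lists, so this count does not describe them. There, none of 3 tested actins passed, 1 myosin II gene rose and 2 fell, and 6 side-binding and cross-linking genes fell while none rose. Of the focal adhesion genes, 2 rose and 3 fell, with VCL among those that fell. SRF itself had a log2 change of 0.04 (edgeR adjusted p = 0.756). EGR1, an immediate-early transcription factor, rose from 5.38 ± 0.918 to 11.2 ± 1.15 FPKM (SD, n = 3 each; edgeR adjusted p = 0.00138). FOS rose by 0.84 and ELK4, an SRF cofactor, by 0.64 on the log2 scale (edgeR adjusted p = 0.00658 and 0.00359). FHL2 rose by 0.23 (edgeR adjusted p = 0.0187), a call lost without NC replicate 3, siPOLR1F replicate 1 or siPOLR1F replicate 3, with adjusted p from 0.00228 to 0.0722 over the alternatives. MRTFA, JUNB and MCL1 were the other members that rose, while the listed targets CCN1 and CCN2 were not among the risers. Those that rose were 4 without NC replicate 3, 3 without siPOLR1F replicate 1, 4 without siPOLR1F replicate 2 and 3 without siPOLR1F replicate 3. Some of these genes were known to rise here when the list was made, so the count is not independent evidence. Any link between these genes and the CArG box of TPM4 was not tested.

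**Figure D4:**
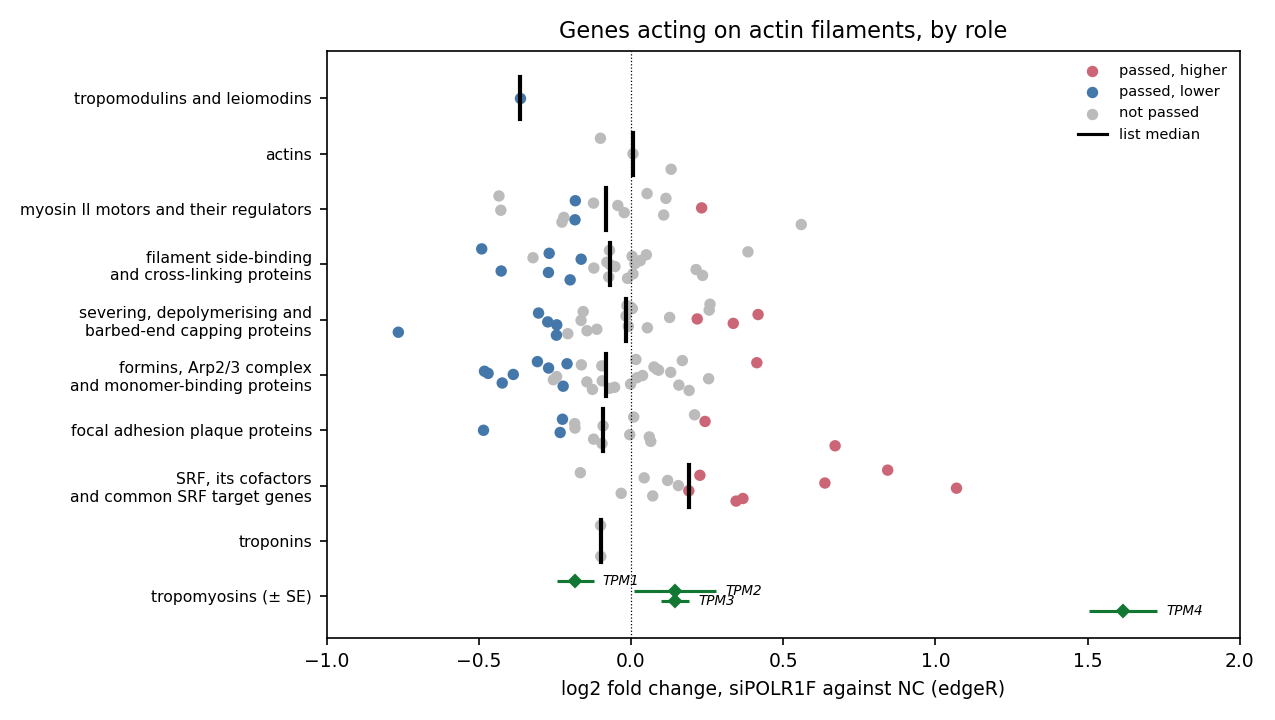
Log2 fold change of siPOLR1F against NC by edgeR (horizontal axis) for each tested gene of the actin filament lists (1 point a gene, 1 line of points a list), coloured by whether it passed the test; black bars are list medians and green diamonds the tropomyosins ± SE. TPM4 at 1.62 lies beyond every other gene shown, of which EGR1 is the next at 1.07.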

How the data were processed

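RNA was poly(A)-selected and sequenced from 3 NC and 3 siPOLR1F libraries, grouped by their labels. The authors used fastp, HISAT2 and StringTie with GRCh38 (hg38), per the submitters' processing notes (versions, gene annotation, strandedness and handling of multiply matching reads: not given in the sources used here). The authors deposited a whole-number count and an FPKM per gene and library. Counts were used as deposited for tests, and the deposited FPKM for levels; in 11391 genes with over 200 counts per library, FPKM tracked the count with a median deviation of 0.0201%.

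Genes averaging 0.5 FPKM or more were tested on counts with edgeR 4.0.16 (TMM, glmQLFit, glmQLFTest, R 4.3.3), two-sided, with Benjamini-Hochberg adjustment over 13564 genes and a threshold of 0.05. The SE is the log2 fold change over the square root of F. The code was tested on simulated data. The biological coefficient of variation was 0.137, and no pair of libraries agreed within sampling noise. Alternatives were DESeq2 1.42.0, limma 3.58.1 on log2(FPKM + 1) and log2(FPKM + 0.1), other filters and scalings, a replicate block and leaving out each library.

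The members and lists were chosen with earlier results of these data known. Named genes were the members, POLR1F, pseudogenes and overlapping genes, the 3 genes most like each member, and per list up to 4 passing genes, lowest adjusted p first (with none passing, its 2 most abundant genes). MRTFA, JUNB, MCL1, SRF, CCN1, CCN2 and MYH3 were named after their values were seen, and their calls under the alternatives are not given. Transcripts came from GENCODE 29 and promoters from RefSeq. LMOD2 and TNNI2 matched no gene name and are not analysed here.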

Additional observations from a re-analysis of the deposited data

How the results depend on the processing

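The log2 fold changes of the 4 members kept their direction under all 14 alternatives, from -0.22 to -0.13 for TPM1, 0.0019 to 0.26 for TPM2, 0.12 to 0.18 for TPM3 and 1.53 to 1.77 for TPM4. The difference in TPM4 share ran from 24.3 points (per kilobase of coding transcript, a scale chosen after seeing the data) to 28.6. Against 1391 genes higher and 942 lower, edgeR without a filter called 663 and 313, and leaving out 1 library gave 730 to 1326 and 423 to 841; the actin filament genes went from 14 higher and 25 lower to 8 and 11 without a filter, and to 7 to 13 and 13 to 22 with 1 library left out. Leaving out a library removes 1 of 6 samples, and dropping the filter adds genes to the adjustment. The part of these changes, or of any other cause, in the lower counts was not tested. With the replicate number as a block, 1517 genes were higher and 1125 lower, with TPM1 called beside TPM4. ACTB also passed in that fit (edgeR adjusted p = 0.0487, up to 0.375 over the alternatives). Deviations from the group mean correlated at 0.329, -0.0828 and 0.197 in same-numbered libraries, against -0.325 to 0.164 in differently numbered ones. Whether the numbers pair the samples is not settled by these values. Of 28 named actin filament genes, 24 passed and 20 kept their call, or lack of one, under every alternative. CAP1 lost its call only without a filter (edgeR adjusted p = 0.0819, range from 1.15e-04). TNNI3, which did not pass, changed sign without NC replicate 1 (0.0593) and without siPOLR1F replicate 3 (0.0017), against -0.304 without NC replicate 2. Tropomyosin levels rested on at least 784 counts per library, the lowest being for TPM2. How far depth and the spread between libraries each limited precision was not tested.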

Other observations

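Genes within 100 kb of each member, chosen after their values were seen, were described for TPM4 first. RAB8A, a small GTPase of membrane traffic 8887 bases away, had a log2 fold change of 0.05 and did not pass edgeR's test (adjusted p = 0.633). FAM32A, 82378 bases away, rose from 32.0 ± 1.91 to 55.4 ± 2.98 FPKM (SD, n = 3 each), a log2 change of 0.80 (SE 0.07, edgeR adjusted p = 2.92e-04). It was the only 1 of 3 tested neighbours of TPM4 that passed. Near TPM2, 2 of 9 tested neighbours rose, CREB3 and TESK1, the latter a kinase that inactivates cofilin (log2 change 0.42, edgeR adjusted p = 0.0298). Near TPM1, RPS27L fell by 0.45 on the log2 scale (edgeR adjusted p = 0.0303), and near TPM3 none of 3 passed. Among all tested genes 17.2% passed, 10.3% as higher and 6.94% as lower, so nothing is read from counts this small.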
